A study of Mus musculus with 25 samples.

Results

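The genes described here are 32 enzymes and regulators of cholesterol and fatty acid synthesis, out of 18193 genes named on the arrays. They were chosen by gene symbol from the platform annotation: 16 of the sterol branch, 11 of the fatty acid branch and 5 of the control system that senses sterols. Each gene took the value of 1 probe set, the one with the highest mean over all 25 arrays, and 22 of the 32 genes had more than 1 probe set (72 probe sets in all). Levels are log2 signals, a difference of 1 on this scale being a doubling, and signals of different probe sets cannot be ranked against each other.

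The study asked how closely engineered mouse cells match native tissue, and its 25 Affymetrix arrays fall into 10 groups. Induced macrophages (iMac) came from the C10 pre-B cell line, converted with 100 nM estradiol in the presence of 10 nM IL-3 and CSF-1. Before conversion they received a lentivirus with scramble, Ebf1 or Pou2af1 shRNA and 2 days of puromycin (n = 2 arrays in each of these groups), and all of them descend from 1 line. Induced hepatocytes (iHep, n = 3) were lines labelled as independent, made from C57BL/6J embryonic fibroblasts of E13.5 with retroviral Foxa1 and Hnf4a and kept in a medium with insulin and dexamethasone. Fetal liver (n = 2) was from E14.5 C57BL/6J fetuses. Adult liver (n = 2) was from C57BL/6J mice, but its labels conflict: fresh liver of 8 weeks in one field, and in another hepatocytes of 10 weeks freed by collagenase. Colon crypts (n = 2) came from Rag2gammac-/- mice of 8 weeks, which carry the same immune deficiency as the hosts of the engrafted cells. Engrafted iHeps (n = 2) were GFP-positive cells sorted from DSS-damaged colon of Rag2gammac-/- hosts 12 days after transplantation. For the Cdx2 experiment, iHeps were infected with a lentivirus carrying scramble (n = 4) or Cdx2 shRNA (n = 4), selected in puromycin for 2 days and cultured for a week. Apart from the iHep lines the labels do not say that replicates were separate cultures or animals, so a p-value here reflects the spread among the deposited samples, which may be technical.

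Cholesterol is built from acetyl-CoA through mevalonate and farnesyl diphosphate to squalene, which is closed to lanosterol and then trimmed in many steps in the endoplasmic reticulum. Fatty acids are built from the same acetyl-CoA by carboxylation and repeated elongation, and are then desaturated and lengthened into mono- and polyunsaturated chains. The sterol regulatory element-binding proteins (SREBPs) activate both branches: SREBP-2, encoded by Srebf2, mainly the sterol branch, and SREBP-1c, a product of Srebf1, mainly the fatty acid branch. SCAP escorts SREBPs from the endoplasmic reticulum to the Golgi for cleavage, and the INSIG proteins hold SCAP back when sterols are plentiful. The adult liver is a main site of both syntheses, and dividing cells make sterol for their membranes.

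Promoter stretches of members on which the liver comparison turns are shown first, each the 150 bases just before an annotated start in RefSeq (GRCm38.p6), read 5′ to 3′ on the gene's own strand. RefSeq promoters were at hand for 25 of the 32 members. Hmgcs1, Idi1, Hsd17b7 and Sc5d are sterol branch genes that were low in fetal liver, Elovl2 is the fatty acid branch gene with the opposite order of fetal liver and iHeps, and Fads2 is a desaturase low in both. Their windows were Hmgcs1 at chr13:119690201-119690350 (plus strand), Idi1 at chr13:8885456-8885605 (plus strand), Hsd17b7 at chr1:169969206-169969355 (minus strand), Sc5d at chr9:42264301-42264450 (minus strand), Elovl2 at chr13:41220163-41220312 (minus strand) and Fads2 at chr19:10101504-10101653 (minus strand). Capitals mark CCAAT boxes (CCAAT or its complement ATTGG), E-boxes (CACGTG) and the sterol regulatory element-like letters TCACNCCAC, searched on both strands.
Hmgcs1: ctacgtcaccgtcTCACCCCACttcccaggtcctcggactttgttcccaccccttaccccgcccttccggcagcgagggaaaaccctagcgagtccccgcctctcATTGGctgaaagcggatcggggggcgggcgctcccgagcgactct
Idi1: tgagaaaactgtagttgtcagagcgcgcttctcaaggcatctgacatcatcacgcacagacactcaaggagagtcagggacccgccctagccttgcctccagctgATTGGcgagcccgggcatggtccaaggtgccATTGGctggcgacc
Hsd17b7: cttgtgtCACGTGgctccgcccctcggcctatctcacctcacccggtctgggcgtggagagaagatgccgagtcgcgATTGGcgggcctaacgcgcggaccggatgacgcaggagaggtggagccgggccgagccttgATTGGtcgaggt
Sc5d: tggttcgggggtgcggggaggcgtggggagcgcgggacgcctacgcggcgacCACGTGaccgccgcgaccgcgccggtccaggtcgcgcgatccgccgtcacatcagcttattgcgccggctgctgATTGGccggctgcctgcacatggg
Elovl2: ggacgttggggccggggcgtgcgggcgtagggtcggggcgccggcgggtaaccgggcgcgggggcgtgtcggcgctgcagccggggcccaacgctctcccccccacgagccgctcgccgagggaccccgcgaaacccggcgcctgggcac
Fads2: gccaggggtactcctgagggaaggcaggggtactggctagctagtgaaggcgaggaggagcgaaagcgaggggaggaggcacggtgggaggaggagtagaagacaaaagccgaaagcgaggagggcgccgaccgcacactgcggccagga

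CCAAT boxes, the binding letters of NF-Y, a common partner of SREBPs, lay within 250 bases upstream of a start in 12 of 12 sterol branch members with a promoter, in 3 of 8 fatty acid branch members and in 4 of 5 control members. Among 27025 genes with a promoter in the same table the share was 37.5%. An E-box was present in 6 of 25 members (24%, against 6.86% of all genes), Hsd17b7, Sc5d and Insig1 among them. TCACNCCAC was found in 1 of 25 members, Hmgcs1, against 1.22% of all genes. The classical sterol regulatory element, SRE-1, was found letter for letter in 0 of 25, against 0.0814%. A gene with several starts counted where any window held the letters, a match is a description of letters and not a bound site, and a window without them says nothing about the factor.

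Several properties of the arrays bear on the comparisons. The signal of 12 spike-in control probe sets divided the arrays without overlap: 10 arrays (iMac, engrafted iHeps and colon) had means of 3.53 to 4.12, and 15 arrays (iHep groups and both livers) had 8.49 to 10.59. Comparisons of iHeps or adult liver with colon or engrafted cells cross this divide, so that group and array set cannot be told apart there; the other comparisons lie within one set. The difference between 3′ and 5′ probe sets of β-actin, a sign of RNA quality, was 1.21 to 1.99 (log2) in adult liver and at most 0.49 elsewhere. For Gapdh it was 1.05 to 1.46 in adult liver, 1.38 to 1.41 in engrafted iHeps, 0.79 to 0.86 in colon and -0.09 to 0.04 in iHeps. In the knockdown checks, Ebf1 fell under its shRNA (log2 fold change -1.04 ± 0.11, limma adjusted p = 0.00389) and Cdx2 fell under its own (-1.16 ± 0.12, adjusted p = 0.00397). Pou2af1 was not lower on the arrays labelled Pou2af1 shRNA (0.14 ± 0.12, adjusted p = 0.495), so these are named by their label. Of the hepatocyte markers, 7 of 7 measured were above the 40th percentile of the array in both livers, by group means, while in iHeps 4 of 7 were, with Cps1, Cyp2e1 and Fga below it. The same 4 of 7 were above it in colon crypts and on the arrays labelled Pou2af1 shRNA. In engrafted iHeps 5 of 7 were, so this count does not set iHeps apart from these groups.

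Across the 10 groups the adult liver held the highest mean of 17 of the 32 members: 7 of 16 in the sterol branch, 6 of 11 in the fatty acid branch and 4 of 5 of the control genes. Colon crypts and engrafted iHeps were highest for 5 members each. The lowest mean lay in fetal liver for 13 members and in an iMac group for 16 (8 of them on the arrays labelled Pou2af1 shRNA). The branches were summarised for each array as the mean over members of the log2 signal minus that gene's mean over the 10 group means. In the sterol branch, adult liver (0.90 ± 0.19, SD, n = 2), colon (0.89 ± 0.02, n = 2) and engrafted iHeps (0.67 ± 0.01, n = 2) stood at the top and fetal liver (-0.88 ± 0.43, n = 2) and the iMac groups (-0.87 to -0.62) at the bottom. The order at the top depends on the mean. By the median over the 16 genes, adult liver arrays were at 0.50 and 0.82 and colon at 0.83 and 0.78. Engrafted iHeps were at 0.91 and 0.80. In the fatty acid branch the mean of adult liver was 1.39 ± 0.47 (n = 2), with the other groups between -0.61 and 0.19. Elovl2, bright in the livers alone, weighs on that mean: by the median over the 11 genes the adult liver arrays were at 0.08 and 1.72, colon at 0.53 and 0.49 and engrafted iHeps at 0.33 and 0.40.

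By the means, colon crypts were level with adult liver in the sterol branch and at -0.06 ± 0.07 (n = 2) in the fatty acid branch, but by the medians adult liver replicate 1 lay below both colon arrays in the fatty acid branch. The iHep lines spread widely, at 0.16, -0.16 and 0.93 for sterol and 0.05, 0.02 and 0.51 for fatty acid genes, replicate 3 being the highest line for 15 of 16 sterol members, 7 of 11 fatty acid members and 5 of 5 control members. Fetal liver replicate 1 was above replicate 2 in 16 of 16, 11 of 11 and 5 of 5 members. These means, and the counts of highest and lowest groups and of array orders, are a description of the chosen genes, without a test. No share over all genes is set beside those counts, so they may not be particular to these genes. Levels across the divide in spike signal rest on the normalization over all arrays.

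**Figure D1:**
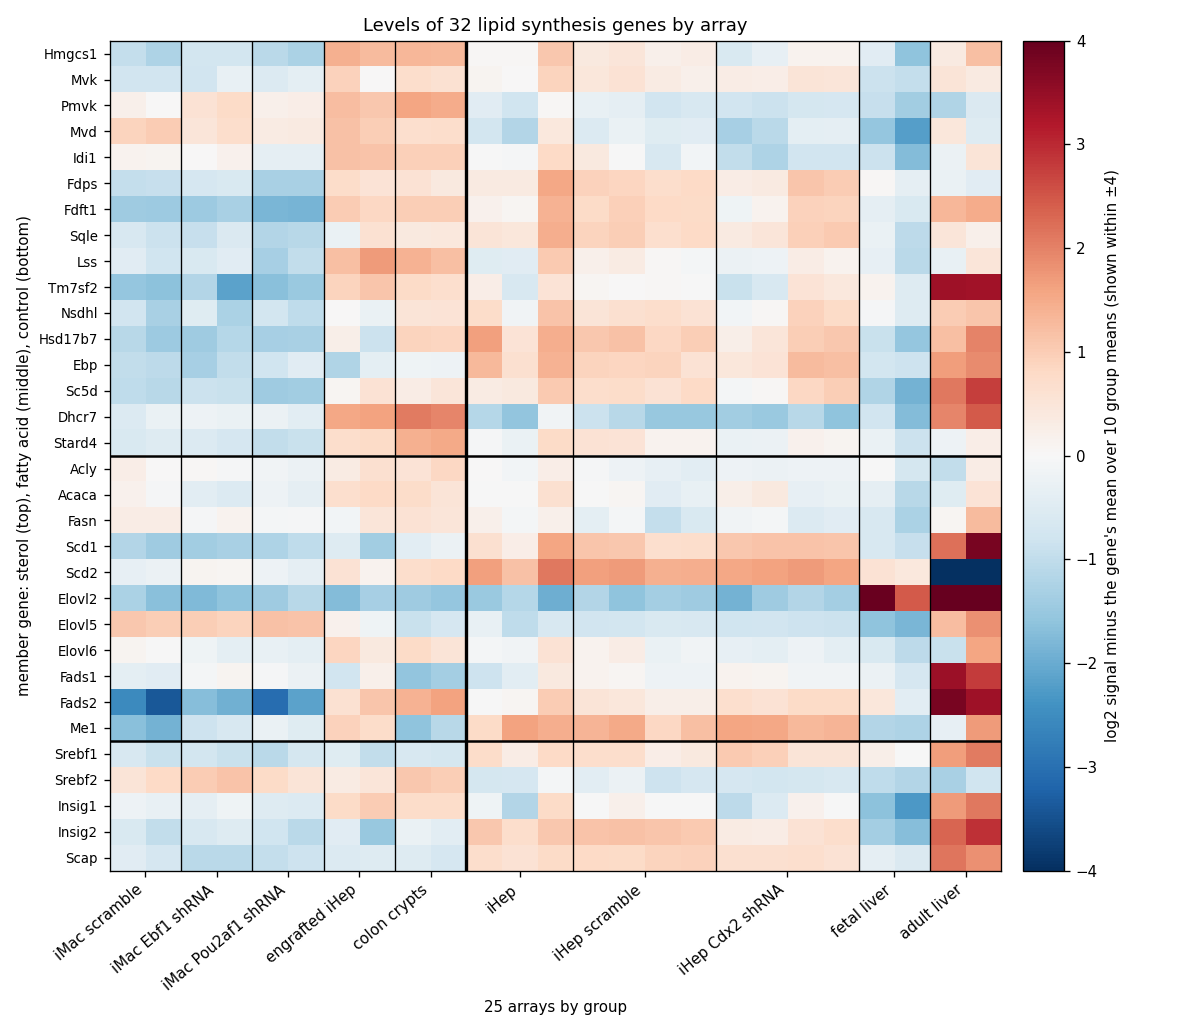
Log2 signal of each of the 32 genes (rows) on each of the 25 arrays (columns) as a deviation from the gene's mean over 10 group means, colours limited to ±4; thin lines part groups and the thick line parts the 10 arrays of low spike signal (left) from the 15 of high signal. The adult liver mean is above 0 for 26 of 32 genes (below it for Acly, Fdps, Mvd, Pmvk, Scd2 and Srebf2) and the fetal liver mean below 0 for 28 (above it for Elovl2, Fads2, Scd2 and Srebf1).

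**Figure D2:**
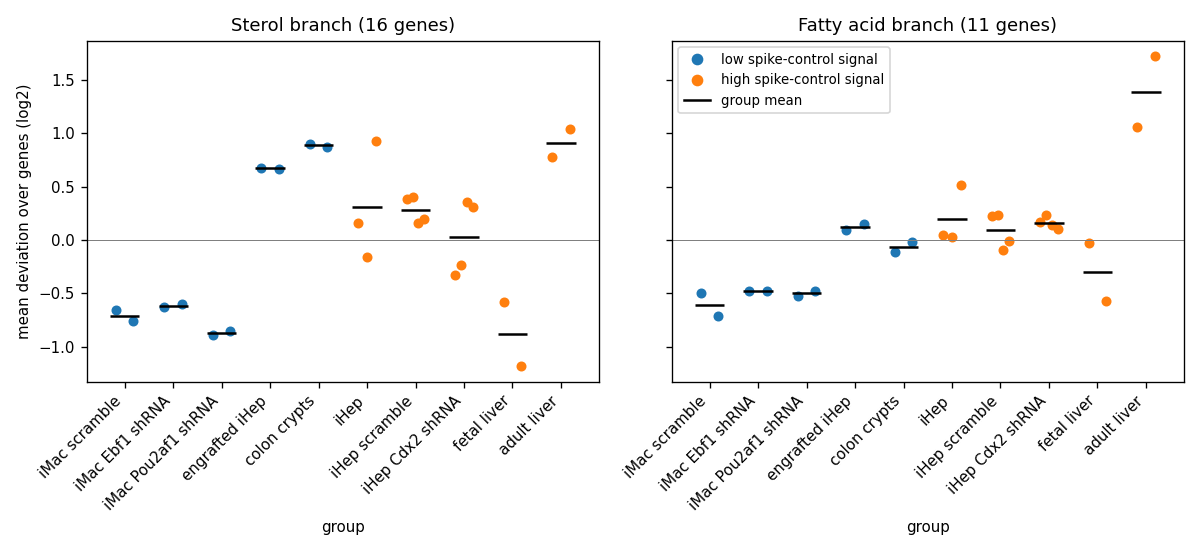
Mean deviation (log2) over the 16 sterol and 11 fatty acid branch genes for each array (points) with group means (bars), coloured by spike-control signal. Adult liver and colon are level in the sterol panel (0.90 and 0.89) and apart in the fatty acid panel (1.39 and -0.06), where Elovl2 weighs on the mean.

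The comparison of fetal with adult liver shows the broadest difference. Of 32 members, 22 were lower in fetal liver past a limma adjusted p of 0.05 and 1, Scd2, was higher, where 49.3% of all 15262 genes tested were called, 18.2% lower and 31.1% higher. In the sterol branch 11 of 16 were lower, with a median log2 fold change of -1.64. In the fatty acid branch 7 of 11 were lower and 1 higher, with a median of -1.90, and among control genes 4 of 5 were lower, with a median of -2.46. The median over all genes was 0.16.

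The 11 sterol members called lower included early and late enzymes of the pathway. Hmgcs1, which makes HMG-CoA for the mevalonate pathway, was at 11.67 and 10.53 (log2 signal) in fetal and 12.51 and 13.35 in adult liver, without overlap (log2 fold change -1.82 ± 0.46, adjusted p = 0.00834). Mvk, Mvd and Idi1, which turn mevalonate into isoprene units, were lower by log2 fold changes of -1.35, -1.85 and -1.45. Fdft1, the squalene synthase, was at 10.48 and 10.23 against 12.16 and 12.31 (-1.88 ± 0.39, adjusted p = 0.00269). Sc5d, the lathosterol oxidase and a late enzyme that reshapes the sterol rings, was at 9.18 and 8.49 in fetal and 12.50 and 13.17 in adult liver (-4.0 ± 0.36, adjusted p = 1.44e-05).

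Tm7sf2, a sterol reductase, was at 8.39 and 7.74 against 11.64 and 11.60 (-3.56 ± 0.37, adjusted p = 3.61e-05). Dhcr7, the enzyme of a final reduction to cholesterol, was at 9.22 and 8.25 against 11.94 and 12.44 (-3.45 ± 0.46, adjusted p = 0.000167). Both genes were far below adult liver on each fetal array. Hsd17b7, the sterone reductase, and Ebp, the sterol isomerase, were lower by -2.80 ± 0.47 and -2.56 ± 0.32 on the log2 scale, and Nsdhl, which acts in the removal of methyl groups, by -1.36 ± 0.37. The 5 sterol members not past the threshold were Pmvk (log2 fold change -0.26), Fdps (0.20), Sqle (-1.02), Lss (-0.79) and the sterol carrier Stard4 (-0.61).

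Of the control genes 4 of 5 were lower in fetal liver. Insig2 was at 8.38 and 8.04 in fetal and 12.09 and 12.68 in adult liver (-4.18 ± 0.36, adjusted p = 1.14e-05), and Insig1 at 9.04 and 8.37 against 12.39 and 12.79 (-3.88 ± 0.51, adjusted p = 0.000157). Both retention factors were lower than in adult liver on every fetal array. Scap was lower by -2.46 ± 0.21 and Srebf1 by -1.76 ± 0.27 on the log2 scale. Srebf2 was level, at 8.93 and 8.78 in fetal and 8.65 and 9.15 in adult liver, and its difference did not pass (-0.05 ± 0.27, adjusted p = 0.903).

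Cell make-up moved with this comparison. Fetal liver, a blood-forming organ at this stage, had erythroid markers at a mean log2 signal of 10.9 to 11.3 (4 of 5 measured above the 40th percentile) against 6.24 to 6.69 in adult liver (2 of 5). Leukocyte markers were at 11.2 to 11.7 against 8.99 to 10.9 (8 of 8 in both), proliferation markers at 12.4 to 12.5 against 5.56 to 6.43, and hepatocyte markers at 10.8 to 11.2 against 14.2 to 14.3. In such bulk samples fewer hepatocytes and less RNA per hepatocyte cannot be told apart, and the part of these markers or of β-actin 3′ signal in the result was not tested. Without fetal liver replicate 2, the differences of Hmgcs1, Mvk, Mvd, Idi1, Nsdhl, Fasn and Me1 missed the threshold (adjusted p 0.0537 to 0.093). Without adult liver replicate 2 those of Hmgcs1, Idi1, Nsdhl and Me1 did (0.0583 to 0.103), without adult liver replicate 1 those of Mvk and Mvd (0.055 and 0.0983), and without fetal liver replicate 1 that of Me1 (0.0693). The other 16 calls held in every such fit.

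**Figure D3:**
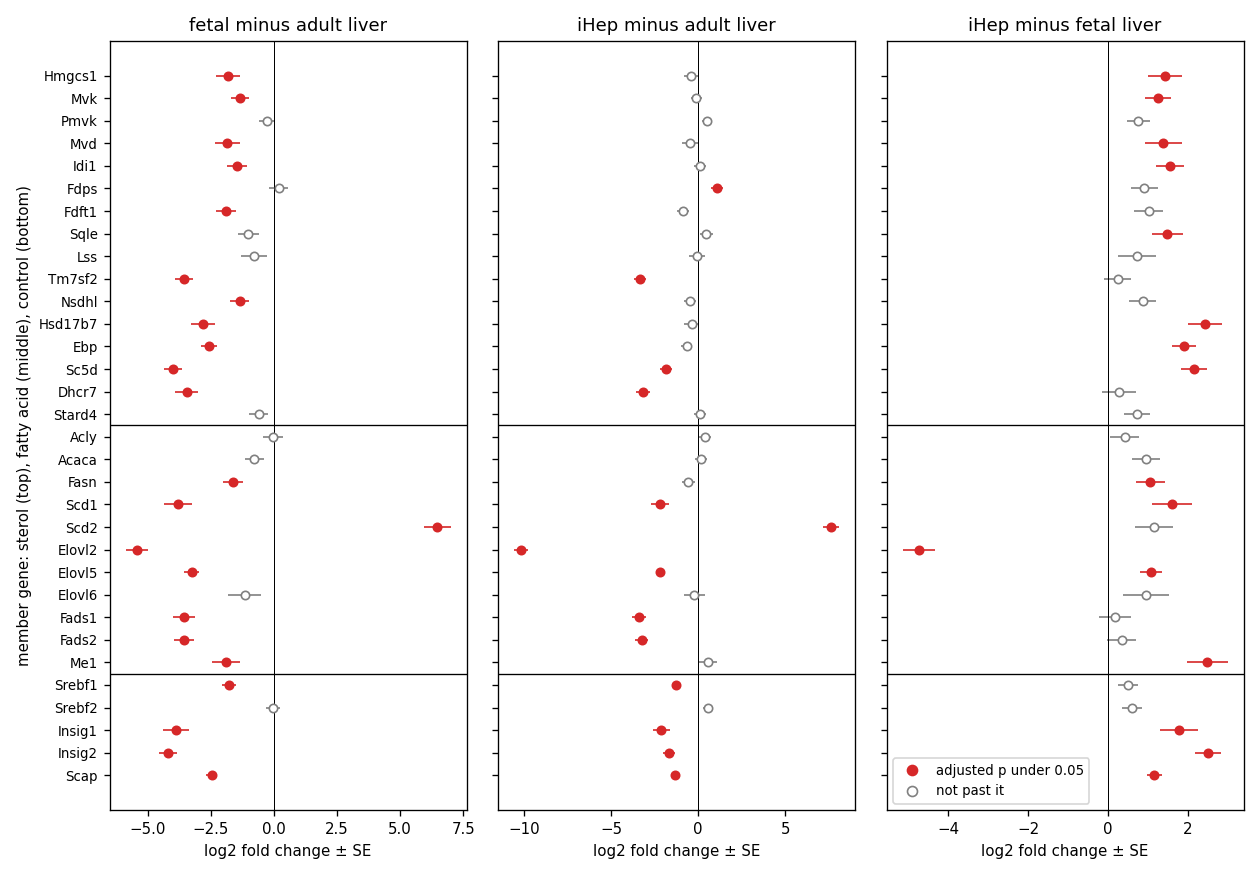
Log2 fold change with its standard error for each of the 32 genes in 3 comparisons; filled red points passed an adjusted p of 0.05 and the scales differ between panels. Fetal against adult liver has 22 genes to the left, iHep against adult liver 12 to the left, and iHep against fetal liver 15 to the right; Elovl2 is dim in iHeps, so its points against iHeps are fitted values and not bounds.

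The iHeps were compared with the same adult liver arrays. Past the threshold 12 members were lower and 2 higher, where 55.9% of all genes were called, 18.2% lower and 37.8% higher. In the sterol branch 3 of 16 were lower, near the 18.2% of all genes. These 3 act late in the pathway, but other late enzymes, Ebp (-0.67), Nsdhl (-0.49) and Hsd17b7 (-0.38), were not called. Tm7sf2 was at 8.52, 7.60 and 8.78 in iHeps against 11.64 and 11.60 in adult liver (-3.32 ± 0.34, adjusted p = 2.48e-05). Dhcr7 was at 8.83, 8.38 and 9.84 against 11.94 and 12.44 (-3.17 ± 0.42, adjusted p = 0.000132). Sc5d was at 10.72, 10.79 and 11.42 against 12.50 and 13.17 (-1.86 ± 0.33, adjusted p = 0.000828). None of these groups overlapped.

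From Hmgcs1 through Idi1 the iHeps lay between -0.47 and 0.50 of adult liver on the log2 scale, none past the threshold, and the median of the sterol branch was -0.39 against 0.26 over all genes. These values are those of the probe sets used. The 4 other Hmgcs1 probe sets ran from -3.10 to 0.42, 2 of them with the same sign as the one used. Fdps, which makes farnesyl diphosphate, was higher, at 10.73, 10.73 and 11.91 against 10.11 and 9.92 (1.11 ± 0.35, adjusted p = 0.0206). That call was lost without adult liver replicate 1 (adjusted p = 0.0631) or replicate 2 (0.104). Of the control genes Insig1 (-2.11 ± 0.47), Insig2 (-1.68 ± 0.33), Scap (-1.30 ± 0.19) and Srebf1 (-1.25 ± 0.25) were lower, and Srebf2, at 9.22, 9.27 and 9.86, was not called (0.55 ± 0.25, adjusted p = 0.091). Hepatocyte markers (5.40 to 8.02 in iHeps), leukocyte markers (4.85 to 5.17 against 8.99 to 10.9 in adult liver) and proliferation markers (11.1 to 11.9 against 5.56 to 6.43) moved with this comparison, and their part in it was not tested.

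Between iHeps and fetal liver, 15 members were higher in iHeps and 1, Elovl2, was lower, where 33% of all genes were called, 19.9% higher and 13.1% lower. All 16 sterol members had a positive log2 fold change and 8 passed, with a branch median of 1.13 against 0.05 over all genes. Hsd17b7 was at 10.59, 9.49 and 10.40 in iHeps and 8.06 and 7.4 in fetal liver (2.43 ± 0.43, adjusted p = 0.00183). Sc5d differed by 2.14 ± 0.33 (adjusted p = 0.000753) and Ebp by 1.90 ± 0.30 (adjusted p = 0.000855). The iHep arrays of all 3 genes lay above both fetal arrays.

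Idi1, Sqle, Hmgcs1, Mvd and Mvk were higher by log2 fold changes of 1.55, 1.48, 1.43, 1.38 and 1.24. In the fatty acid branch Me1 (2.48), Scd1 (1.60), Elovl5 (1.07) and Fasn (1.06) were higher, and of the control genes Insig2 (2.50 ± 0.33), Insig1 (1.78 ± 0.47) and Scap (1.16 ± 0.19). Erythroid markers, at 5.14 to 5.29 in iHeps, and leukocyte markers, at 4.85 to 5.17, moved with this comparison, and their part in it was not tested. Proliferation markers were high in both groups (11.1 to 11.9 in iHeps). Without fetal liver replicate 2, Hmgcs1, Mvk, Mvd, Idi1, Sqle, Fasn, Scd1, Elovl5 and Insig1 missed the threshold (adjusted p 0.0938 to 0.314) and 7 members were called. Without fetal liver replicate 1 Mvk, Mvd, Fasn and Scd1 missed it (0.0544 to 0.107), without iHep replicate 3 Hmgcs1, Mvd, Fasn and Scd1 (0.0752 to 0.105), without iHep replicate 1 Mvd, Fasn and Scd1 (0.0536 to 0.0972), and without iHep replicate 2 Fasn (0.0656).

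The 3 comparisons share arrays and are not independent, so their calls are set side by side only. Elovl5, Insig1, Insig2, Sc5d, Scap and Scd1 were lower than adult liver in both fetal liver and iHeps and higher in iHeps than in fetal liver. Dhcr7, Fads1, Fads2, Srebf1 and Tm7sf2 were lower than adult liver in both, with no call between iHeps and fetal liver. Ebp, Fasn, Hmgcs1, Hsd17b7, Idi1, Me1, Mvd and Mvk were lower in fetal liver than in adult liver and iHeps, with no call between iHeps and adult liver. Acaca, Acly, Elovl6, Lss, Pmvk, Srebf2 and Stard4 passed in none.

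The desaturases and elongases carried the largest differences of the fatty acid branch. Scd1 and Scd2 encode stearoyl-CoA desaturases, which make monounsaturated chains, and lie on the same chromosome with 1 protein-coding gene between them in the RefSeq table. Scd2 was at 6.90 and 5.05 (log2 signal) in adult liver, at 12.52 and 12.38 in fetal liver and at 13.60, 13.12 and 14.07 in iHeps. It was higher than in adult liver by 6.48 ± 0.52 in fetal liver (adjusted p = 7.66e-06) and by 7.62 ± 0.48 in iHeps (adjusted p = 1.18e-06). In no group other than adult liver was any array below 11.58 on the probe set used. The size of these differences depended on the probe set. Between fetal and adult liver the other 2 Scd2 probe sets differed by 1.30 and 3.79 (log2). Between iHeps and adult liver they had the same sign as the one used. On 1 of them every array of high spike signal, iHeps and fetal liver included, lay below every array of low signal.

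Scd1, in contrast, was highest in adult liver, at 12.79 and 14.39 in adult liver, 9.93 and 9.66 in fetal liver and 11.21, 10.83 and 12.14 in iHeps. It was lower than in adult liver by -3.79 ± 0.56 in fetal liver (adjusted p = 0.000304) and by -2.20 ± 0.51 in iHeps (adjusted p = 0.00432), the latter lost without adult liver replicate 2 (adjusted p = 0.0528). On the probe sets used, adult liver was thus the group with the highest Scd1 and the lowest Scd2 of all 10. Adult liver replicate 2 had the higher Scd1 and the lower Scd2 of that pair.

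Fads1 and Fads2, neighbouring genes with no protein-coding gene between them, encode the desaturases of polyunsaturated chains. Fads1 was at 13.32 and 12.70 in adult liver, 9.67 and 9.25 in fetal liver and 9.09, 9.50 and 10.29 in iHeps. Fads2 was at 12.57 and 12.17, 9.25 and 8.36, and 8.76, 8.87 and 9.79 in the same groups. Both were lower than in adult liver by -3.23 to -3.57 on the log2 scale in fetal liver and iHeps. In iMac arrays Fads2 was at 5.40 to 7.08 while Fads1 was at 9.47 to 10.02. On the probe sets used, Fads2 lay below all its other arrays and Fads1 within their range. The lowest of these Fads2 values was under the 40th percentile of the array, and iHeps and livers lie across the spike divide. The other 2 Fads2 probe sets were not lower on average on the arrays of low spike signal (iMac, engrafted iHeps and colon). Their means were 8.10 and 8.84 there and 7.61 and 8.13 on the arrays of high signal.

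Elovl2, an elongase of very long polyunsaturated chains, was at 13.61 and 13.63 in adult liver and 8.94 and 7.46 in fetal liver. On the other 21 arrays it was at 3.04 to 3.87, under the 40th percentile of the array. With that percentile of the dim arrays taken as the floor, adult liver was at least 263-fold and fetal liver at least 6.14-fold above iHeps. The limma calls of Elovl2 against iHeps and colon use fitted values under that floor, not these bounds. The gene passed the filter through the liver arrays alone, so those calls add no support. Adult and fetal liver differed by -5.42 ± 0.44 on the log2 scale (adjusted p = 8.01e-06). Elovl5, which elongates polyunsaturated chains, was at 13.47 and 14.07 in adult liver, 10.63 and 10.42 in fetal liver and 11.93, 11.24 and 11.61 in iHeps, and stood at 13.15 to 13.40 in iMac arrays, below both adult liver arrays.

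**Figure D4:**
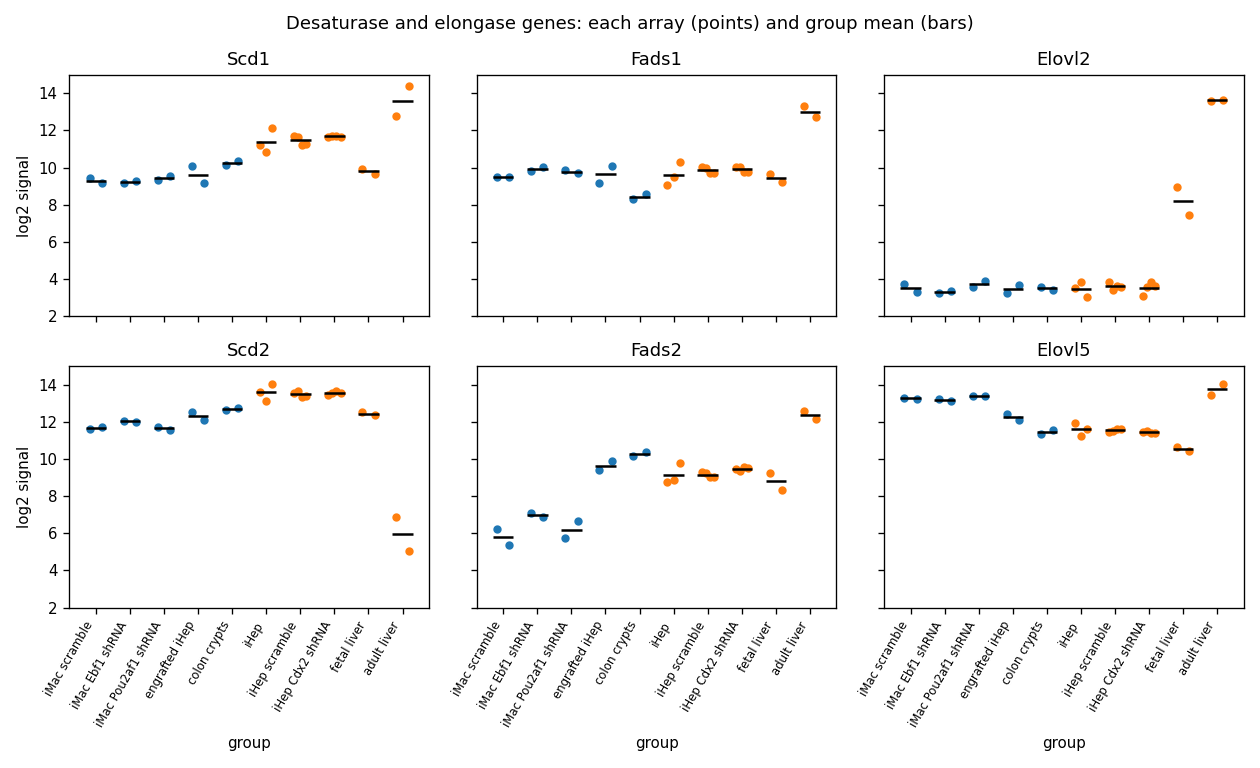
Log2 signal of 6 desaturase and elongase genes on each array (points, coloured by low and high spike signal in blue and orange) with group means (bars). Adult liver is highest for Scd1, Fads1, Fads2, Elovl2 and Elovl5 and lowest for Scd2, and Elovl2 lies between 3.04 and 3.87 outside the livers.

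The enzymes that supply and assemble the chains differed less. Fasn, the fatty acid synthase, was at 9.49 and 8.86 in fetal liver against 10.21 and 11.38 in adult liver (-1.62 ± 0.39, adjusted p = 0.00605) and did not pass between iHeps and adult liver (-0.56 ± 0.35, adjusted p = 0.212). Acly, which cleaves citrate to acetyl-CoA, differed by -0.03 and 0.39 (log2) from adult liver in fetal liver and iHeps, and Acaca, the carboxylase of the first step, by -0.77 and 0.18, none past the threshold. Elovl6, the elongase of saturated chains, was at 9.0 and 11.46 in adult liver, where the replicates lay far apart, and passed in neither. Me1, a source of NADPH, was likewise apart in adult liver, at 8.17 and 10.22.

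Further genes of the pathways, from lists chosen by function, went the same way as the members in part. Over all genes tested, 18.2% were lower and 31.1% higher in fetal than adult liver. Of 13 other sterol pathway genes measured, 6 were lower and 1 higher there. Msmo1 (-3.67 ± 0.41) and Cyp51 (-3.12 ± 0.42), both sterol demethylation enzymes, Npc1, a lysosomal sterol exporter (-2.54), and Tmem97 (-2.10) led them on the log2 scale. Of 20 other fatty acid and lipogenesis genes tested, 13 were lower and 3 higher, led by Mlxipl, which encodes the glucose-responsive factor ChREBP (-5.35 ± 0.47), and Acacb, the mitochondrial carboxylase (-5.04 ± 0.38), with Dgat2 (-3.24) and Acss2 (-3.16). For iHeps against adult liver the counts were 3 lower and 4 higher of 13, and 9 lower and 3 higher of 20. The shares over all genes were 18.2% lower and 37.8% higher, and the sterol counts lay near them. Mlxipl (-7.02 ± 0.43), Acacb (-5.16 ± 0.35) and Dgat2 (-3.44) were lower and Elovl7 higher (5.11 ± 0.28), as was Mbtps2, an SREBP protease (1.56), while Npc1 (-1.87), Nr1h3 (-1.82), a sterol-sensing receptor, and Abca1 (-1.54), a sterol exporter, were lower.

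Against fetal liver the iHeps had 7 of 13 other sterol genes higher and 0 lower, where 19.9% of all genes were higher and 13.1% lower. Msmo1 (3.28 ± 0.37), Cyp51 (2.55 ± 0.38), Mbtps2 (1.49) and Aacs (1.09) had the largest log2 fold changes. Of 20 other lipogenesis genes 5 were higher and 2 lower, Elovl7 (3.41), Fads3 (3.04) and Slc25a1 (1.42), the citrate carrier, being higher and Mlxipl lower (-1.67 ± 0.43).

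Between adult liver and colon crypts, 7 of 11 fatty acid branch, 4 of 5 control and 5 of 16 sterol branch members were called. Adult liver exceeded colon for 12 members and was below it for 4, where 60.7% of all genes were called, 24.8% higher and 35.9% lower. Of the fatty acid branch 6 of 11 were higher in adult liver: Scd1 (log2 fold change 3.33), Fads1 (4.58), Fads2 (2.09), Elovl5 (2.30), Me1 (2.06) and Elovl2 (at least 259-fold). Scd2 was lower (-6.72 ± 0.52). Of the sterol branch Tm7sf2 (2.65), Sc5d (2.05) and Ebp (1.97) were higher and Pmvk (-2.43) and Stard4 (-1.43) lower, with a branch median of -0.15 against -0.20 over all genes. Hepatocyte markers were at 14.2 to 14.3 in adult liver and 6.47 to 6.65 in colon, and proliferation markers at 5.56 to 6.43 and 8.71 to 8.82, and their part in the result was not tested.

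Srebf1 and Srebf2 took opposite directions here. Srebf1 was at 12.16 and 12.57 in adult liver and 9.85 and 9.80 in colon (2.54 ± 0.27, adjusted p = 3.72e-05), and Srebf2 at 8.65 and 9.15 against 11.01 and 10.93 (-2.07 ± 0.27, adjusted p = 0.000138). This comparison crosses the divide in spike signal, and the probe sets of Srebf1 and Srebf2 separated all 10 arrays of low spike signal from all 15 of high signal, Srebf1 being higher and Srebf2 lower where the spike signal was high. Group and array set cannot be told apart for them. Without adult liver replicate 1 Stard4 missed the threshold (adjusted p = 0.0503), as did Me1 without adult liver replicate 2 (0.0509) or colon replicate 1 (0.0636). Repeated quantile normalization moved the share of higher genes among all those called from 40.9% to 51.2%.

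Between iHeps and colon 6 members were higher in iHeps and 6 lower, where 53.6% of all genes were called, 32.3% higher and 21.3% lower. Dhcr7 was at 8.83, 8.38 and 9.84 in iHeps and 12.06 and 11.94 in colon (-2.99 ± 0.42, adjusted p = 0.000294). Pmvk (-1.94), Srebf2 (-1.52), Stard4 (-1.31), Lss (-1.26) and Fads2 (-1.14) were also lower, and Me1 (2.64), Ebp (1.30), Insig2 (1.30), Srebf1 (1.29), Scap (1.27) and Fads1 (1.19) higher on the log2 scale. Of these, Lss, Fads1 and Fads2 missed the threshold without either colon array (adjusted p 0.0789 to 0.182). Lss and Fads2 also did so without iHep replicate 1 or 2 (0.0741 to 0.139), Fads1 without iHep replicate 2 or 3 (0.0523 and 0.0851), and Stard4 and Insig2 without colon replicate 2 (0.0515 and 0.0573). Leukocyte markers were at 4.85 to 5.17 in iHeps and 8.98 to 9.17 in colon, and their part in these differences was not tested.

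Engrafted iHeps were compared with colon crypts and with cultured iHeps. Against colon crypts, within one spike set, 1 of 32 members was called by limma, and 0 of 16 in the sterol branch (1 at an unadjusted p under 0.05), where 16.8% of all genes were called, 7.1% higher and 9.66% lower. Me1, the NADPH-producing malic enzyme, was at 9.41 and 9.24 in engrafted cells and 6.89 and 7.38 in colon (2.19 ± 0.56, adjusted p = 0.0263). Leaving out any of the 4 arrays ended that call (adjusted p 0.0561 to 0.162). The absence of other calls does not show that the levels were alike: the standard errors of members were 0.21 to 0.64.

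Against cultured iHeps, across the spike divide, 6 members were higher in engrafted cells and 7 lower, where 48% of all genes were called, 18.2% higher and 29.7% lower. Dhcr7, at 11.53 and 11.57 against 8.83, 8.38 and 9.84, was higher by 2.54 ± 0.42 (adjusted p = 0.000951). Mvd (1.58), Pmvk (1.55), Lss (1.42), Tm7sf2 (0.95) and Srebf2 (0.90) were higher on the log2 scale. Insig2 (-1.94), Ebp (-1.91), Scd1 (-1.77), Hsd17b7 (-1.52), Srebf1 (-1.36), Scd2 (-1.28) and Scap (-1.22) were lower. Without engrafted replicate 2, Lss, Tm7sf2, Hsd17b7, Scd1, Scd2 and Srebf2 missed the threshold (adjusted p 0.0583 to 0.18) and 7 members were called.

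Without engrafted replicate 1 Mvd, Tm7sf2 and Scd2 missed it (0.0717 to 0.079), without iHep replicate 1 Lss and Scd2 (0.0863 and 0.0883), without iHep replicate 2 Mvd, Lss, Tm7sf2 and Srebf2 (0.0501 to 0.107), and without iHep replicate 3 Scd1 and Scd2 (0.0514 and 0.137). For each of Lss, Scd1 and Scd2, 1 other probe set differed in the opposite direction from the one used. The remaining probe sets of Lss (4.25) and Scd2 (-0.19) had the same sign as the one used. Colon epithelium markers were at 10.6 to 11.4 in engrafted cells (9 of 9 above the 40th percentile), 12.3 in both colon arrays and 7.20 to 7.57 in iHeps (5 of 9). Leukocyte markers were at 5.88 to 8.51 and fibroblast markers at 5.89 to 9.11 in the engrafted arrays. Together with the Gapdh 3′ difference, these values moved with the comparison, and their part in it was not tested.

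Other pathway genes were called between engrafted cells and colon in 0 of 13 sterol and 3 of 20 lipogenesis genes, all lower in engrafted cells: Acsl3 (-1.27), Dgat1 (-1.11) and Elovl7 (-1.09). Over all genes 16.8% were called there, 9.66% lower, so the 3 of 20 lay near the share. Against iHeps 1 of 13 sterol genes was higher and 6 lower, Abca1 (-4.25 ± 0.32), Mylip (-3.15 ± 0.36), Abcg1 (-2.05) and Msmo1 (-2.01) having the largest log2 fold changes. The shares over all genes were 18.2% higher and 29.7% lower. Of the lipogenesis genes 5 were higher, among them Mlxipl (3.32 ± 0.43) and Acss2 (2.79), and 2 lower, Gpam (-2.39) and Lpin1 (-1.96). Against the same colon arrays the iHeps had Abca1 (4.23), Mylip (2.28), Mbtps2 (2.07) and Mbtps1 (1.15) higher, with 4 of 13 sterol genes higher and 2 lower. The shares over all genes were 32.3% higher and 21.3% lower. Of the lipogenesis genes 4 were higher and 7 lower there, Acss2 (-3.30), Acsl3 (-3.03), Mlxipl (-2.26) and Lpin1 (2.72) leading. Between adult liver and colon 7 of 13 sterol genes were higher and 3 lower, and 9 of 20 lipogenesis genes higher and 5 lower, with Abca1 (5.77), Mlxipl (4.76) and Acacb (4.23) higher and Elovl7 lower (-5.66). The shares over all genes were 24.8% higher and 35.9% lower.

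Knockdown of Cdx2, an intestinal transcription factor, in iHeps left 1 member called. Insig2 was at 10.10, 10.06, 10.34 and 10.47 under Cdx2 shRNA and at 10.90, 10.93, 10.87 and 10.80 under scramble, without overlap. It fell by 0.63 on the log2 scale (SE 0.11, adjusted p = 0.0242), where 1.68% of 13650 genes fell and 0.535% rose. With the replicate number as a block the adjusted p was 0.0345, and 5.57% of all genes were called (1.77% higher and 3.79% lower) against 2.21% without it. The call missed the threshold without any 1 of the 4 scramble arrays or without Cdx2 shRNA replicate 2 (adjusted p 0.0678 to 0.0791), and with the mean of its probe sets.

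The sterol branch had 0 of 16 calls by limma (3 at an unadjusted p under 0.05), a median log2 fold change of -0.22 and 15 of 16 negative values. The arrays under Cdx2 shRNA differed among themselves. Replicates 1 and 2 were both below all 4 scramble arrays for 13 of 16 sterol members, while replicate 3 was so for 2 and replicate 4 for 4. Over all 13650 genes tested, replicates 1 and 2 were both below all scramble arrays for 19.8%, replicate 3 was for 29.2% and replicate 4 for 26.6%, and all 4 were for 6.96%. Idi1 was at 10.05, 9.80, 10.27 and 10.28 against 11.42, 11.03, 10.40 and 10.93, each array under Cdx2 shRNA below each scramble array (-0.84 ± 0.21, adjusted p = 0.0771). Hmgcs1 was at 11.52, 11.80, 12.27 and 12.29 against 12.54, 12.64, 12.34 and 12.44 (-0.52 ± 0.18, adjusted p = 0.192), also without overlap, and neither passed. Without scramble replicate 3, Idi1 was called (-1.02, adjusted p = 0.0401).

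Within same-numbered pairs the median difference over sterol members was -0.72, -0.63, 0.20 and 0.15 (log2) for replicates 1 to 4, and over all 11 fatty acid members -0.02, 0.03, 0.20 and 0.13. The labels do not say what the numbers stand for. Over all genes tested, replicates 1 and 2 of both groups deviated together, as did replicates 3 and 4. In the fatty acid branch 0 of 10 genes tested passed in limma (2 at an unadjusted p under 0.05), the median being 0.12, with Fads2 at 0.34 ± 0.09 (adjusted p = 0.118). Elovl2, under the 40th percentile on these arrays, was not tested. Of other pathway genes Mylip, whose product degrades lipoprotein receptors, fell by 0.73 and Mid1ip1, an activator of acetyl-CoA carboxylase, fell by 0.66 (adjusted p = 0.0309 and 0.0398), 1 of 13 and 1 of 19 tested. Over all genes 1.68% fell.

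**Figure D5:**
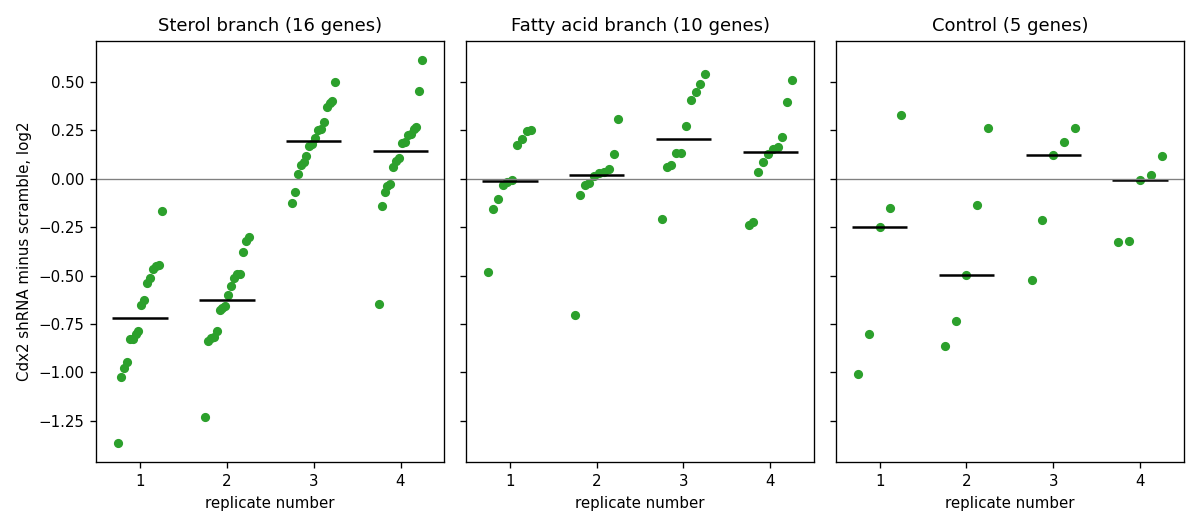
Difference between Cdx2 shRNA and scramble iHeps of the same replicate number (log2) for each gene tested (points) with medians (bars), by branch. Sterol genes lie below 0 for replicates 1 and 2 (medians -0.72 and -0.63) and mostly above 0 for replicates 3 and 4, while fatty acid genes (Elovl2 not tested) lie on both sides of 0 in every pair.

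In induced macrophages the share of members called was near that of all genes. On arrays with Ebf1 shRNA 2 members rose and 2 fell, where 14.4% of all 12484 genes were called, 6.21% higher and 8.16% lower. Me1 was at 7.66 and 7.85 against 6.84 and 6.61 in scramble (1.03 ± 0.14, adjusted p = 0.00863). Pmvk rose (0.57 ± 0.12, adjusted p = 0.0295), and Acaca (-0.53 ± 0.12, adjusted p = 0.0366) and Scap (-0.51 ± 0.11, adjusted p = 0.0348) fell. The calls of Pmvk, Acaca and Scap were lost without any 1 of the 4 arrays (adjusted p 0.0554 to 0.151), and that of Me1 without scramble replicate 2 (0.0557). Another probe set of Acaca differed in the opposite direction. Fads2 had the largest difference of a member, at 7.08 and 6.86 against 6.22 and 5.40, but did not pass (1.16 ± 0.37, adjusted p = 0.0864).

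On the arrays labelled Pou2af1 shRNA, 1 member was higher than scramble and 2 lower, where 11.9% of all genes were called, 6.79% higher and 5.14% lower. Me1 was at 8.25 and 8.00 against 6.84 and 6.61 (1.40 ± 0.14, adjusted p = 0.00394), and held in each fit with 1 array left out. Mvd (-0.63 ± 0.12, adjusted p = 0.024) and Idi1 (-0.50 ± 0.10, adjusted p = 0.03) were lower, and were lost without any 1 of the 4 arrays (adjusted p 0.079 to 0.138). Both shRNA groups share the scramble arrays.

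Compared directly, the Ebf1 shRNA arrays had 5 sterol members above the arrays labelled Pou2af1 shRNA and 0 of 10 fatty acid members called by limma (2 at an unadjusted p under 0.05), where 16.4% of all genes were called, 7.1% higher and 9.31% lower. Fdps was at 9.70 and 9.77 against 9.07 and 9.06 (0.67 ± 0.09, adjusted p = 0.00647), and held in each fit with 1 array left out. Sc5d (0.52), Pmvk (0.46), Idi1 (0.46) and Fdft1 (0.46) were higher on the log2 scale, and were lost without any 1 of the 4 arrays (adjusted p 0.0501 to 0.187). Of the other sterol genes Cyp51 (0.95 ± 0.10) and Msmo1 (0.65 ± 0.12) were higher, 2 of 12 tested. Against scramble, Msmo1 (0.68), Cyp51 (0.63) and Mylip (0.56) rose with Ebf1 shRNA, 3 of 12, and Mylip (0.51) was the 1 of 12 on the arrays labelled Pou2af1 shRNA.

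Of the other lipogenesis genes 2 of 19 rose and 2 fell with Ebf1 shRNA: Acss2 (0.64), Dgat1 (0.40), Gpam (-0.59) and Acsl5 (-0.40). On the arrays labelled Pou2af1 shRNA 3 were higher and 2 lower, Dgat2, which makes triglyceride, having the largest log2 fold change (-1.66 ± 0.12, adjusted p = 0.00145). Between both shRNAs Dgat2 (1.40 ± 0.12) and Acsl3 (0.48) were higher and Elovl7 lower (-1.01) with Ebf1 shRNA. Over all genes 14.4%, 11.9% and 16.4% were called in these 3 comparisons. Macrophage markers were at 10.0 to 10.1 in scramble, 10.8 to 10.9 with Ebf1 shRNA and 10.99 to 11.05 on the arrays labelled Pou2af1 shRNA, and B cell markers at 9.28 to 9.38, 8.68 to 8.82 and 9.99 to 10.1, and their part in these changes was not tested. Ebf1, the target of its shRNA, is 1 of the 7 B cell markers measured, at 8.35 in scramble and 7.31 with Ebf1 shRNA. Part of the lower B cell mean with Ebf1 shRNA is thus built in.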

How the data were processed

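The authors deposited log2 values of 45101 Affymetrix mouse probe sets for 25 arrays, made with RMA per the submitters' processing notes (which state no version). These values ran from 2.05 to 15.1 and were used as deposited, with no further normalization. GEO's platform annotation gave 1 gene symbol to 34945 probe sets, several to 932 and none in the table used here to 9160, and each of 18193 genes took its probe set with the highest mean. Genes above the 40th percentile of the array in at least 2 arrays of a model were tested two-sided in R 4.3.3 by lmFit and eBayes of limma 3.58.1, in 3 models: iMac (6 arrays, 12484 genes), livers, iHeps, engrafted cells and colon (11 arrays, 15262 genes) and Cdx2 knockdown (8 arrays, 13650 genes). P-values were adjusted by Benjamini-Hochberg over all genes in each of 11 comparisons, ± after a fold change is its standard error, and an adjusted p under 0.05 is a call. The number of arrays limits the precision.

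Members and gene lists were chosen with earlier results of these data known. All members are named, and of the other pathway genes up to 4 called ones with the largest fold change in each list and comparison; 13 of 22 and 21 of 23 listed genes were measured. Some genes are not reported here. In the Cdx2 arrays same-numbered samples deviated together (correlations 0.53, 0.32, 0.58 and 0.44), and the labels are silent on pairing. Replicates 1 and 2 also deviated together across numbers (0.41 and 0.17), as did replicates 3 and 4 (0.35 and 0.19). Between these sets of arrays the correlations ran from -0.54 to -0.14. Each scramble array correlated most with the Cdx2 shRNA array of its own number. Cdx2 shRNA replicate 2, however, correlated more with scramble replicate 1 (0.41) than with scramble replicate 2 (0.32). Pairing by number is thus not settled by these values. The fits were tested on simulated data. Promoters are RefSeq's (GRCm38.p6). Python 3.11.15 with matplotlib 3.10.9 made the plots.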

Additional observations from a re-analysis of the deposited data

Results flagged for a closer look

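In groups of 4 arrays, 64 sets of values of a member were examined for an array far from the other 3, by the gap to the nearest array over the whole range against Dixon's critical value, and 3 passed it; chance gives about 1 in 20. All of them lay in the scramble iHeps. Ebp, the sterol isomerase, was lowest in replicate 4, at 11.37 (log2 signal) against 11.65 to 11.67 in the others. Fdft1, the squalene synthase, was highest in replicate 2, at 11.78 against 11.59 to 11.62. Insig1 was highest in replicate 2, at 10.88 against 10.65 to 10.67. None of these genes was called between Cdx2 shRNA and scramble.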

How the results depend on the processing

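Counts are of members called. For Ebf1 shRNA against scramble iMac (4), no filter gave 1, a filter at the 60th percentile 8, trend and robust fitting 10, a change of at least 1 on the log2 scale 1, all 25 arrays in 1 model 0, and leaving out 1 array 0 to 1. For the arrays labelled Pou2af1 shRNA against scramble (3), the 60th percentile gave 10, trend and robust fitting 11, a change of at least 1 gave 1, all 25 arrays 0, and leaving out 1 array 1. For Ebf1 against Pou2af1 shRNA (5), no filter gave 2, the 60th percentile 10, trend and robust fitting 11, a change of at least 1 gave 0, all 25 arrays 0, and leaving out 1 array 1. For iHep against fetal liver (16) leaving out 1 array gave 7 to 18, for iHep against colon (12) 7 to 16 with all 25 arrays giving 19, and for engrafted against iHep (13) 7 to 16. For engrafted cells against colon (1), leaving out shared probe sets gave 0, repeated quantile normalization 2, all 25 arrays 6 and leaving out 1 array 0 to 3. For Cdx2 shRNA (1), the mean of all probe sets, a change of at least 1 and all 25 arrays gave 0, and leaving out 1 array 0 to 1. The counts for iHep (14) and fetal liver (23) against adult liver and for adult liver against colon (16) stayed within 1.5 times in every alternative run; with arrays of the same spike set only, fetal and iHep against adult liver gave 23 and 14, and iHep against fetal liver 14.

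With the replicate number as a block, 2 members were called for Ebf1 shRNA against scramble, 3 for Ebf1 against Pou2af1 shRNA and 10 for iHep against fetal liver; in the iMac and liver models samples share only a number, with same-number correlations of 0.01 to 0.05 and -0.15 to 0.10. The block left Insig2 called under Cdx2 shRNA (adjusted p = 0.0345) and changed no other call there.

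A sign change counted where the value was called in either fit. Elovl6 in iHep against adult liver ran from -1.44 to 1.02 as adult liver replicates 1 and 2 were left out. With the mean of all probe sets, Scd2 was at -1.31 in iHep against colon and 0.58 in engrafted against iHep. Without shared probe sets Lss was at 0.25 in iHep against colon, and in engrafted against iHep Lss was at -0.15, Hmgcs1 at -1.28 and Elovl5 at -0.92. The cause of these shifts was not tested. Over all pairs of a result and an alternative, a call was gained in 167 and lost in 195. In 5391 no call was gained, lost or reversed, or a branch median shifted by less than the spread among arrays. A sign change with no call in either fit is counted among these 5391.

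Over all genes, Cdx2 shRNA gave 302 calls, 760 with the block, 76 with a change of at least 1, 73 with all 25 arrays and 56 to 224 without 1 array. Engrafted cells against colon gave 2557, 5540 with all 25 arrays and 639 with arrays of the same spike set only, an alternative chosen after seeing the data, as was leaving out probe sets that separate the spike sets. Ebf1 shRNA against scramble gave 1794, 1120 without a filter, 2856 with trend and robust fitting, 410 at a change of at least 1, 432 with all 25 arrays and 507 to 825 without 1 array. The arrays labelled Pou2af1 shRNA gave 1490, 923, 2551, 359, 315 and 355 to 450 in the same order. Ebf1 against Pou2af1 shRNA gave 2048, 574 at a change of at least 1, 659 with all 25 arrays and 892 to 1308 without 1 array. The iHep to fetal liver count, 5038, was as low as 3007 without 1 array. Centring arrays on their medians moved the median of all genes from 0.26 to 0.42 in iHep against adult liver, from 0.22 to 0.35 in iHep against colon, from -0.22 to -0.33 in engrafted against iHep and from 0.16 to 0.27 in fetal against adult liver.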

Other observations

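Probe sets of the same member did not always agree. For Lss, lanosterol synthase, the 3 probe sets differed between engrafted and cultured iHeps by 1.42, -0.15 and 4.25 on the log2 scale, and between iHeps and colon by -1.26, 0.25 and -4.15. For Scd2 they differed by -1.28, -0.19 and 3.20 between engrafted and cultured iHeps, and for Scd1 by -1.77 and 0.36. Stard4 differed by -1.31, 0.40 and -2.10 between iHeps and colon and by -1.43, 0.25 and -4.03 between adult liver and colon. These comparisons cross the divide in spike signal.

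Within one spike set the probe sets of Fdft1 differed by -1.88, -1.81, 0.03 and -0.26 between fetal and adult liver, those of Acaca by -0.53 and 0.02 between Ebf1 shRNA and scramble, and those of Scap by 1.16 and -0.30 between iHeps and fetal liver, the other Scap probe set being above the 40th percentile on 2 of 11 arrays. The first value of each series is that of the probe set used throughout.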
